A study of Homo sapiens with 9 samples.

Results

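Chemokine genes and the genes of their receptors were described across 9 RNA-seq libraries of MOLM13, an established acute myeloid leukaemia line whose cells carry a fusion of KMT2A and an activating FLT3 mutation (FLT3-ITD). They were chosen by name, as protein-coding genes whose symbol begins with CCL, CXCL, XCL, CX3CL, CCR, CXCR, XCR or CX3CR followed by a digit, together with IL8 (also called CXCL8). Of the 57820 named genes of the table, 62 chosen in this way are described, 45 chemokines and 17 receptors. Symbols with a hyphen were not taken, and PF4, PF4V1 and PPBP, chemokines whose symbols lie outside the rule, had 0 TPM in every library (a level scaled by gene length and by library). The libraries form 3 groups of 3 biological replicates. RBM5 KO cells carry Cas9 and the guide RBM5-sg1, RBM5 OE cells carry a lentiviral vector that expresses an RBM5 cDNA joined to Venus through P2A from an EFS promoter, and CTRL cells carry a non-targeting guide (sgNT). RBM5 binds RNA and takes part in the first steps of splicing. A single guide defines the RBM5 KO group, the control carries a guide and not an empty expression vector, and the labels give neither a day of harvest nor a batch. RBM5 itself stood at 70.5, 73.9 and 79.4 CPM in RBM5 KO (counts scaled to library size, by TMM), 379.8, 414.3 and 415.6 CPM in RBM5 OE, and 122.3, 116.9 and 112.7 CPM in CTRL, so every library followed its label. Counts of RBM5 pool the vector's coding sequence with the cell's own gene.

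Chemokines are small secreted proteins that bind G-protein-coupled receptors on leukocytes and direct where these cells move. CC, CXC, XC and CX3C chemokines are named after the spacing of their first cysteines, and many of them bind more than one receptor. Monocytes and the leukaemic cells that resemble them can make CC chemokines and IL8, and CXCR4, the receptor of CXCL12, is known for holding blood stem cells and leukaemic blasts in the bone marrow. Several chemokine promoters hold sites for NF-kappaB, interferon regulatory factors and AP-1.

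The promoters below belong to the 4 chemokine genes that were higher in RBM5 OE than in CTRL and had an entry in RefSeq's promoter table (GRCh38.p14). Each line gives the 250 bases before the transcription start, 5′ to 3′ on the strand of the gene. Capitals mark matches on either strand to a kappaB site (the NF-kappaB consensus, GGGRNNYYCC), to the interferon-stimulated response element (GAAA, any 2 bases, GAAA), or to the AP-1 site TGANTCA. R stands for A or G, Y for C or T and N for any base. Only exact matches are marked. A stretch that departs by a single base, as tggaatttcc in IL8 does from the kappaB pattern, is not. CXCL1, a chemokine that attracts neutrophils and had 0 counts in all 9 libraries, is shown for contrast.
CXCL10, minus strand, chr4:76023498-76023747: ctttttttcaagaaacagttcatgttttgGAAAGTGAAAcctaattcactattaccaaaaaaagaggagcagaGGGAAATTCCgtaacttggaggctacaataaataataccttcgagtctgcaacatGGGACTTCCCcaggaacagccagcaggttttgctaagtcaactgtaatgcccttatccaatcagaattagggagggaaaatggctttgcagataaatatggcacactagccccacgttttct
CXCL11, minus strand, chr4:76036071-76036320: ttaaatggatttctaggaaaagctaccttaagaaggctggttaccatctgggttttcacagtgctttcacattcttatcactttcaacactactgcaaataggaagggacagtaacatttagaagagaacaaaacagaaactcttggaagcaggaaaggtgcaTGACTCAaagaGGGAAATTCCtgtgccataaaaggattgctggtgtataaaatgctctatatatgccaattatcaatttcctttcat
CCL20, plus strand, chr2:227813592-227813841: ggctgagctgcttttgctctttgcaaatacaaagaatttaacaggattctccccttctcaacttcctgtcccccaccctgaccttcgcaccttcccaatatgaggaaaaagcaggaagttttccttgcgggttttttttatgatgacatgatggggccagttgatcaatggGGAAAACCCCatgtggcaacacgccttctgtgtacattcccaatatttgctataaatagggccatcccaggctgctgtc
IL8, plus strand, chr4:73740319-73740568: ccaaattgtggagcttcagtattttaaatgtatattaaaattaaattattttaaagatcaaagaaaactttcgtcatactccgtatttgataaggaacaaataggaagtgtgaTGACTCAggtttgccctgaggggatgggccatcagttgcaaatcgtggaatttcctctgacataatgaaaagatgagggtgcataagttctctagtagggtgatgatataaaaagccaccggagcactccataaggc
CXCL1, plus strand, chr4:73869143-73869392: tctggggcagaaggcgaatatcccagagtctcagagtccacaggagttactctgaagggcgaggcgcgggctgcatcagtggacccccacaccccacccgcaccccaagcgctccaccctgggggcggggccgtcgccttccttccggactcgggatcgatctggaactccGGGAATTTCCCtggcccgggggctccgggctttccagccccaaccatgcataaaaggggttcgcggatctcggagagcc
Counted back from the transcription start, CXCL10 held an interferon-stimulated response element that began at position -221 and kappaB matches at -177 and -122. CXCL11 held an AP-1 match at -87 and a kappaB match at -76, CCL20 a kappaB match at -79 and IL8 an AP-1 match at -137. Of the 62 genes, 45 had a promoter entry, and the search covered the 250 bases shown and the 50 bases after the start. A kappaB match was found in 11 of these 45 promoters, against 11.3% of all 35116 promoters in the table. Among the 9 genes that were higher in RBM5 OE, 6 had an entry and 4 of these held a kappaB match, the fourth being CCR3 at -188. CCL2, CXCL16 and CCR10 had no entry. The response element was found in 4 of the 45 promoters (3.57% of all promoters), including that of CCR6 at -124, and the AP-1 site in 8 (7.71%). The kappaB letters of CXCL1 were also in the promoters of CXCL2, CXCL3, CXCL5 and CXCL6, none of which reached 1 TPM in any library. A match describes these letters and is not evidence of a bound factor.

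The members took 0.0523% to 0.139% of each library's counts, and the libraries held 25522952 to 27871988 counts. With at least 1 TPM in all 3 libraries of a group as the measure of expression, 24 members were expressed, 15 chemokines and 9 receptors. CXCL10, CCL20, CXCL16, CCL4 and CCR3 met this measure through RBM5 OE only. All of these but CCL4 are among the genes called higher in RBM5 OE below. A further 11 had at least 10 counts over the 9 libraries and no more than 1.76 TPM in any, namely the chemokines CCL1, CCL22, CX3CL1, CXCL2, CXCL6, CXCL9 and CXCL11 and the receptors CCR7, CXCR1, CXCR5 and CXCR6. Another 11 had up to 8 counts in all, and 16 had none, among them CXCL12 and the receptor CCR4. A count of 0 allows up to 3 counts, or 0.118 CPM in the shallowest library, by counting error alone. CXCR5 had 83.7, 57.7 and 53.9 counts in CTRL replicate 1, RBM5 OE replicate 3 and CTRL replicate 3 and under 1 count elsewhere. It overlaps BCL9L in the annotation, and its fold changes are not described. All 10 marker genes of leukaemic myeloid cells were present, with summed levels of 2337 to 2606 TPM in RBM5 KO, 1080 to 1132 TPM in RBM5 OE and 1661 to 1780 TPM in CTRL. LYZ, the lysozyme gene, had the highest level of the 10 and weighs most on these sums. Its means were 1977 TPM in RBM5 KO, 491 TPM in RBM5 OE and 1171 TPM in CTRL. In RBM5 OE against CTRL, 4 of the 10 were called higher (CD14, PTPRC, ITGAM and HOXA9), where 19.8% of all genes were. LYZ and CD33 were called lower, where 20.2% of all genes were. In RBM5 KO against CTRL, LYZ was called higher and FLT3 lower. Markers of B cells, erythroid cells, fibroblasts and epithelium summed to under 3 TPM in every library, those of megakaryocytes to at most 5.83 TPM, and those of T cells to at most 21.9 TPM, most of it from TRAC. CD2, CD3E, CD3G and CD8A stayed under 1 TPM in every library, and CD3D had 0.88, 4.04 and 3.8 TPM in RBM5 KO and at most 2.05 TPM in the other groups. TRAC was called higher in RBM5 OE than in CTRL (log2 fold change 0.61, adjusted p = 0.0181).

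Per length, IL8, a CXC chemokine that attracts neutrophils through CXCR1 and CXCR2, had the highest mean of the chemokines in RBM5 KO and RBM5 OE, while CCL5 had the highest in CTRL. IL8 had 108, 378 and 379 TPM in RBM5 KO, 232, 215 and 199 TPM in RBM5 OE, and 143, 137 and 83.8 TPM in CTRL. CCL5 (RANTES), a ligand of CCR1 and CCR3, had 226 ± 114 TPM in RBM5 KO, 198 ± 6.0 TPM in RBM5 OE and 172 ± 62.9 TPM in CTRL (SD, n = 3 each). The SD in RBM5 KO and CTRL was several times that in RBM5 OE, and in both groups 1 library lay far below the other 2. CCL3, another ligand of CCR1, had 121 ± 91.9 TPM in RBM5 KO, 203.5 ± 10.5 TPM in RBM5 OE and 74.1 ± 53.5 TPM in CTRL.

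Among the receptors, CXCR4 stood first, with 90.9 ± 8.48 TPM in RBM5 KO, 94.7 ± 3.85 TPM in RBM5 OE and 89.6 ± 22.9 TPM in CTRL (SD, n = 3 each). CCR2, the receptor of CCL2 on monocytes, was next with 39.6 ± 3.78 TPM in RBM5 KO, 52.7 ± 0.922 TPM in RBM5 OE and 50.6 ± 13.6 TPM in CTRL. CCR1 and CXCR2 had group means between 11.5 and 23.4 TPM. CXCR3 lay below both in RBM5 OE (7.65 TPM) and CTRL (9.6 TPM) but not in RBM5 KO, where its mean was 15.8 TPM. The CX3CR1, CCR6, CCR10 and CCR3 genes had lower means, from 0.59 TPM for CCR3 to 6.74 TPM for CX3CR1, both in RBM5 KO. At least 1 known ligand gene was also expressed for CCR1 (CCL3 and CCL5), CCR2 (CCL2), CCR3 (CCL5 and CCL24) and CCR6 (CCL20). The same held for CXCR2 (IL8), CXCR3 (CXCL10) and CCR10 (CCL28). Of these genes, CCL20, CXCL10 and CCR3 met the measure of expression in RBM5 OE only. CXCL12 was at 0, and CX3CL1, the ligand of CX3CR1, had 18 counts over all libraries.

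**Figure D1:**
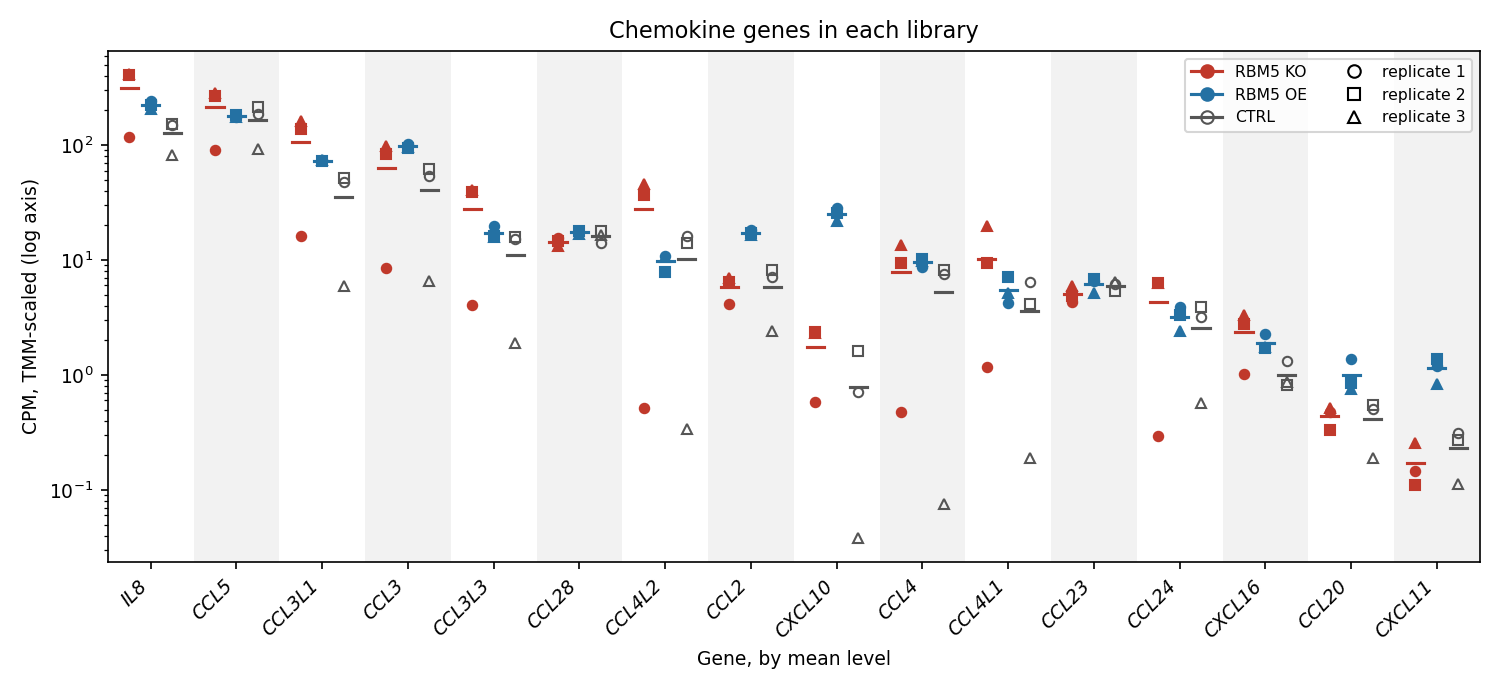
Each point is 1 library's level of a chemokine gene in CPM (TMM-scaled, log axis), with RBM5 KO, RBM5 OE and CTRL side by side and bars at the group means. The figure shows the 15 expressed chemokine genes and CXCL11. CXCL10 stands at 21.8 to 28.5 CPM in RBM5 OE, above every other library, and for CCL3, CCL4 and their copies RBM5 KO replicate 1 and CTRL replicate 3 lie far below the rest of their groups.

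Before any comparison, RBM5 KO replicate 1 and CTRL replicate 3 stood apart from the other libraries of their groups. Over all genes the chi-square distance per gene was 39.3 and 33.7 between RBM5 KO replicate 1 and the other RBM5 KO libraries, against 9.76 between those. It was 16.2 and 21.9 between CTRL replicate 3 and the other CTRL libraries, against 8.88 between those. Both libraries were the lowest of their group for 15 of the 28 members tested, against 21% of the 14754 genes tested, and both were the highest for CCR2 alone, against 19.6% of genes. The chemokines showed this more often (12 of 17) than the receptors (3 of 11). The deviation from the mean of the other libraries had a median over the members of -1.33 on the log2 scale in RBM5 KO replicate 1 and -0.88 in CTRL replicate 3, where the median of all genes was 0.00 in both. For CCL3, RBM5 KO replicate 1 had 8.48 CPM beside 84.1 and 97.5 CPM, and CTRL replicate 3 had 6.61 CPM beside 53.4 and 61.7 CPM. CCL4L2 had 0.512 CPM in RBM5 KO replicate 1 beside 36.6 and 45.6 CPM, and 0.34 CPM in CTRL replicate 3 beside 16.2 and 14.2 CPM. The cause was not tested, and results are given with and without these libraries.

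**Figure D2:**
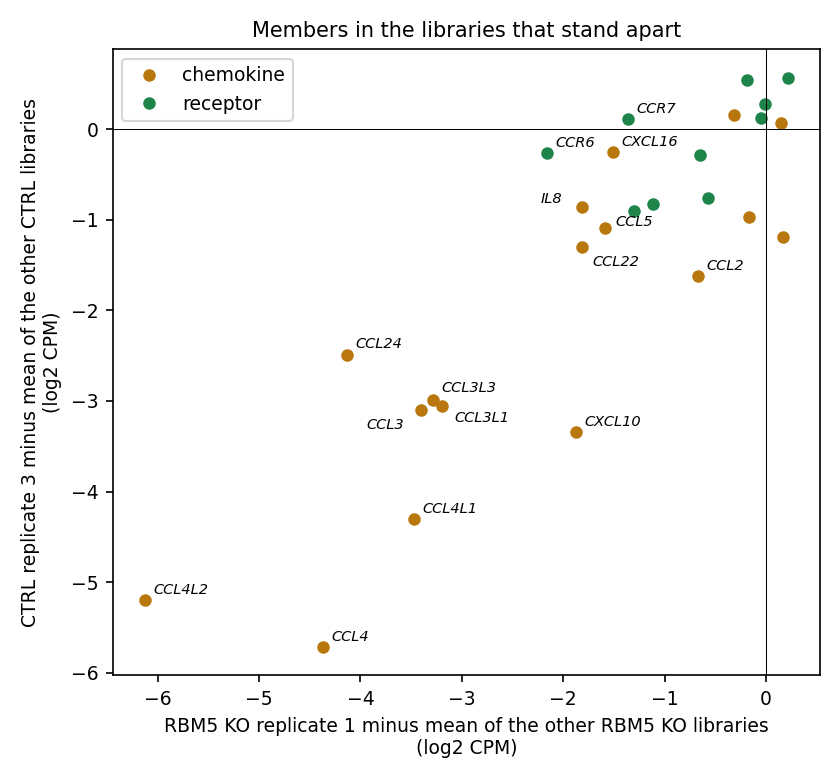
Each point is a tested member (27 genes, CXCR5 not drawn), placed by how far RBM5 KO replicate 1 (x axis) and CTRL replicate 3 (y axis) lie from the mean of the other libraries of the group, in log2 CPM. Chemokine genes run down to -6.12 for CCL4L2 in RBM5 KO replicate 1 and -5.72 for CCL4 in CTRL replicate 3, while most receptor genes lie nearer to 0.

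RBM5 OE was compared with CTRL to ask which genes change when RBM5 is raised. Of 27 members tested, 9 were higher in RBM5 OE (edgeR's quasi-likelihood test, p adjusted over all 14370 genes tested under 0.05), where 19.8% of all genes tested were higher. None was lower, where 20.2% of all genes were, and 40.1% of all genes changed in either direction. Without adjustment, 0 members were lower at p under 0.05 with edgeR, and DESeq2 also called 0 lower. The 6 chemokines that rose were CXCL10, CXCL11, CCL2, IL8, CCL20 and CXCL16, and the 3 receptors were CCR3, CCR10 and CCR6. The median log2 fold change was 0.64 over the members tested and 0.01 over all genes tested. In bulk RNA, fewer cells that express a gene and less RNA per cell cannot be told apart. Every value of the 3 RBM5 OE libraries lay above every CTRL value for 11 members, against 26.1% of all genes, and 0 members lay wholly below, against 25.5% (51.7% in either direction).

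CXCL10, an interferon-inducible chemokine that draws CXCR3-bearing T cells, had the largest fold change of the members. It had 28.5, 25.6 and 21.8 CPM in RBM5 OE, against 0.706, 1.60 and 0.0378 CPM in CTRL. All 3 RBM5 OE libraries were above all CTRL libraries, and CTRL replicate 3 held a single CXCL10 read. The log2 fold change was 5.02 (SE 0.41, adjusted p = 7.06e-06, n = 3 each), and it was 4.45 (adjusted p = 3.65e-12) without CTRL replicate 3. The gene (ENSG00000169245) lies on chromosome 4 of GRCh37 from 76942271 to 76944650 on the minus strand, inside the span of ART3 on the other strand. The counts carry no strand, and ART3 itself was at 0 CPM in 8 libraries and at 0.11 CPM in RBM5 OE replicate 1.

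CXCL11, the neighbour of CXCL10 on the minus strand of chromosome 4 (76954835 to 76962568, GRCh37, ENSG00000169248) and also a ligand of CXCR3, was low in all libraries. It had 1.21, 1.38 and 0.834 CPM in RBM5 OE, against 0.314, 0.273 and 0.113 CPM in CTRL. The groups did not overlap, and the log2 fold change was 2.27 (SE 0.44, adjusted p = 0.00191), or 1.94 (adjusted p = 0.00332) without CTRL replicate 3. CXCL11 passed the filter on low counts in this comparison and in that of RBM5 OE with RBM5 KO, and not in that of RBM5 KO with CTRL. CXCL9, the other interferon-inducible ligand of CXCR3, had 16 counts over all 9 libraries and was not tested.

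CCL2 (MCP-1), the chemokine that calls CCR2-bearing monocytes, also rose. It had 18.3, 17.2 and 16.3 CPM in RBM5 OE, against 7.06, 8.15 and 2.42 CPM in CTRL. Again no CTRL library reached the RBM5 OE libraries, with a log2 fold change of 1.56 (SE 0.29, adjusted p = 0.00149), or 1.18 (adjusted p = 2.56e-07) without CTRL replicate 3. CCL2 lies on chromosome 17 of GRCh37 from 32582293 to 32584227, with no other annotated gene in its span. CCL7, a close relative of CCL2, was near 0, and CCL8 had 0 counts in every library.

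IL8 rose by less, with 242.2, 221.8 and 207.4 CPM in RBM5 OE, against 148, 152.3 and 82.5 CPM in CTRL. The groups did not overlap, and the log2 fold change was 0.81 (SE 0.18, adjusted p = 0.00348), or 0.57 (adjusted p = 5.18e-06) without CTRL replicate 3. In the fit that took all 9 libraries its adjusted p was 0.117. The other chemokines that attract neutrophils through CXCR2 were not seen beyond 0.89 TPM, the highest level of CXCL2.

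CCL20, the ligand of CCR6, and CXCL16, a membrane-bound chemokine for CXCR6, were called on small values. CCL20 had 1.39, 0.847 and 0.758 CPM in RBM5 OE, against 0.51, 0.546 and 0.189 CPM in CTRL (log2 fold change 1.26, SE 0.45, adjusted p = 0.0424). CXCL16 had 2.27, 1.73 and 1.74 CPM in RBM5 OE, against 1.33, 0.82 and 0.869 CPM in CTRL (log2 fold change 0.93, SE 0.30, adjusted p = 0.0273). Both were separate from CTRL, yet CCL20 lost its call without any 1 of the 6 libraries (adjusted p 0.0547 to 0.193) and CXCL16 without any but CTRL replicate 1 (adjusted p 0.0501 to 0.113). CCL20 was also not called by DESeq2 (adjusted p = 0.0601), nor CXCL16 in the fit of all 9 libraries (adjusted p = 0.0987). CXCL16 overlaps MED11 and ZMYND15 on the other strand, and MED11 had means of 3.99 CPM in RBM5 OE and 7.05 CPM in CTRL.

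The remaining expressed chemokines were not called in RBM5 OE. CCL3 had 101.9, 95.1 and 95.7 CPM in RBM5 OE, against 53.4, 61.7 and 6.61 CPM in CTRL (log2 fold change 1.27, SE 0.49, adjusted p = 0.0571). Its groups did not overlap, and without CTRL replicate 3 the change was 0.76 (adjusted p = 3.34e-07), without CTRL replicate 2 it was 1.70 (adjusted p = 0.0385). CCL3L1, a near-identical copy of CCL3, had 73.5, 72.3 and 73.5 CPM in RBM5 OE, against 47.6, 51.4 and 5.90 CPM in CTRL (log2 fold change 1.07, adjusted p = 0.0967), or 0.56 (adjusted p = 7.37e-06) without CTRL replicate 3. Reads of such copies can be assigned to the wrong one, and the 3 copies CCL3, CCL3L1 and CCL3L3 summed to 195.2, 183.7 and 184.9 CPM in RBM5 OE, against 116.3, 128.9 and 14.4 CPM in CTRL (log2 fold change 1.12, adjusted p = 0.094). CCL3L3 alone had 19.8, 16.2 and 15.7 CPM in RBM5 OE, against 15.3, 15.8 and 1.89 CPM in CTRL (log2 fold change 0.66, adjusted p = 0.293). CCL4, CCL4L1 and CCL4L2, which are near-identical copies as well, summed to 23.8, 25.1 and 25.6 CPM in RBM5 OE, against 30.1, 26.5 and 0.605 CPM in CTRL (log2 fold change 0.39, adjusted p = 0.666). For this sum the RBM5 OE libraries lay below CTRL replicates 1 and 2 and above CTRL replicate 3. CCL4 alone had 8.63, 10.1 and 9.82 CPM in RBM5 OE, against 7.5, 8.15 and 0.0756 CPM in CTRL, and CCL4L1 had 4.24, 7.13 and 5.2 CPM in RBM5 OE, against 6.40, 4.14 and 0.189 CPM in CTRL (log2 fold changes 0.87 and 0.64, adjusted p = 0.312 and 0.445). CCL4L2 had 10.9, 7.8 and 10.6 CPM in RBM5 OE, against 16.2, 14.2 and 0.34 CPM in CTRL. Its log2 fold change was -0.06 (adjusted p = 0.949), or -0.64 (adjusted p = 0.000887) without CTRL replicate 3. CCL5 had 176.4, 183.8 and 176.6 CPM in RBM5 OE, against 184.7, 213.8 and 93.2 CPM in CTRL, and the log2 fold change of 0.13 (SE 0.21) did not pass the test. CCL23, a CCR1 ligand, CCL24 (eotaxin-2, a CCR3 ligand) and CCL28, the ligand of CCR10, had log2 fold changes of 0.05, 0.34 and 0.11, with overlapping groups.

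**Figure D3:**
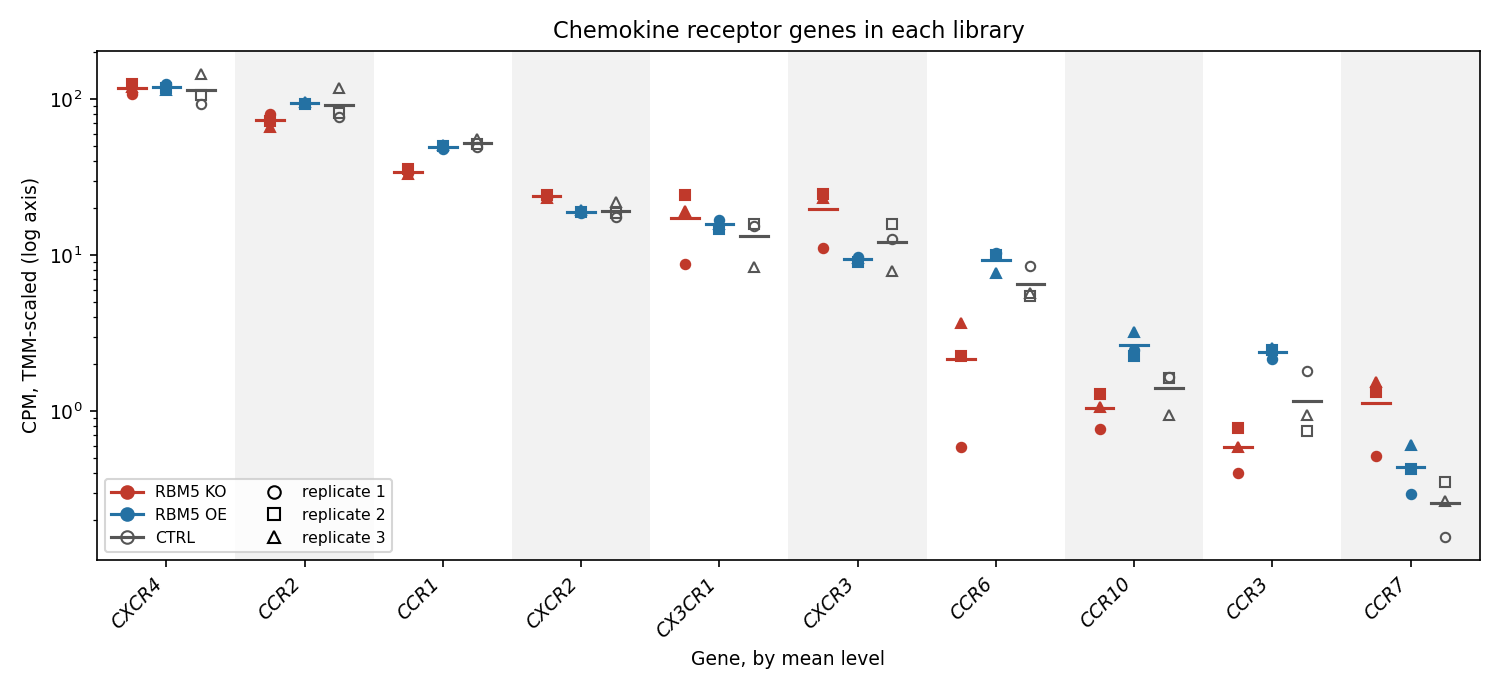
Each point is 1 library's level of a receptor gene in CPM (TMM-scaled, log axis), with RBM5 KO, RBM5 OE and CTRL side by side and bars at the group means. The figure shows the 9 expressed receptor genes and CCR7. CXCR4 lies near 100 CPM in all groups, and CCR6 spreads over 0.585 to 3.68 CPM in RBM5 KO.

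The receptors called in RBM5 OE were all receptors of CC chemokines. CCR6, the receptor of CCL20, had 10.3, 10.0 and 7.66 CPM in RBM5 OE, against 8.52, 5.46 and 5.67 CPM in CTRL (log2 fold change 0.51, SE 0.19, adjusted p = 0.0472). RBM5 OE replicate 3 lay below CTRL replicate 1 for CCR6, so that its groups overlapped. CCR3, the eotaxin receptor of eosinophils and basophils, had 2.16, 2.47 and 2.54 CPM in RBM5 OE, against 1.81, 0.741 and 0.945 CPM in CTRL (log2 fold change 1.04, SE 0.32, adjusted p = 0.0239). CCR10, a receptor of CCL28, had 2.45, 2.26 and 3.22 CPM in RBM5 OE, against 1.65, 1.64 and 0.945 CPM in CTRL (log2 fold change 0.91, SE 0.28, adjusted p = 0.0231). The groups of CCR3 and CCR10 did not overlap. None of these 3 calls held without every single library. The adjusted p reached 0.163 for CCR6, which lost its call without RBM5 OE replicates 1 and 2 and CTRL replicates 2 and 3. It reached 0.0802 for CCR3, lost without RBM5 OE replicates 2 and 3 and CTRL replicate 2, and 0.102 for CCR10, lost without RBM5 OE replicates 1 and 3 and CTRL replicate 3. CCR6 was also not called with log2(TPM + 1) or log2(TPM + 0.1) in limma (adjusted p = 0.119 and 0.127) or in the fit of all 9 libraries (adjusted p = 0.352), nor CCR10 with log2(TPM + 0.1) (adjusted p = 0.0501). CCR3 spans CCR1 on the other strand, and CCR10 overlaps CNTNAP1, which had means of 11.1 CPM in RBM5 OE and 4.96 CPM in CTRL. How far reads of these partners enter the values was not tested.

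The major receptors of these cells were not called. CXCR4 had 123.7, 118 and 113.8 CPM in RBM5 OE, against 92.9, 106.2 and 144.6 CPM in CTRL (log2 fold change 0.05, SE 0.13). CCR1, with 47.4, 49.9 and 50.7 CPM in RBM5 OE and 49.5, 51.7 and 55.0 CPM in CTRL, had a log2 fold change of -0.08 (SE 0.073). CCR2, CXCR2 and CX3CR1, the fractalkine receptor, had log2 fold changes of 0.03, -0.02 and 0.26. CTRL replicate 3 was the highest CTRL library for CXCR4, CCR1, CCR2 and CXCR2, and without it CXCR4 had a log2 fold change of 0.25 (adjusted p = 0.013) and CCR2 of 0.24 (adjusted p = 0.00976). CXCR3, the receptor of CXCL10 and CXCL11, had 9.66, 9.0 and 9.52 CPM in RBM5 OE, against 12.7, 15.8 and 7.94 CPM in CTRL (log2 fold change -0.36, SE 0.20, adjusted p = 0.165), or -0.60 (adjusted p = 0.000704) without CTRL replicate 3.

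**Figure D4:**
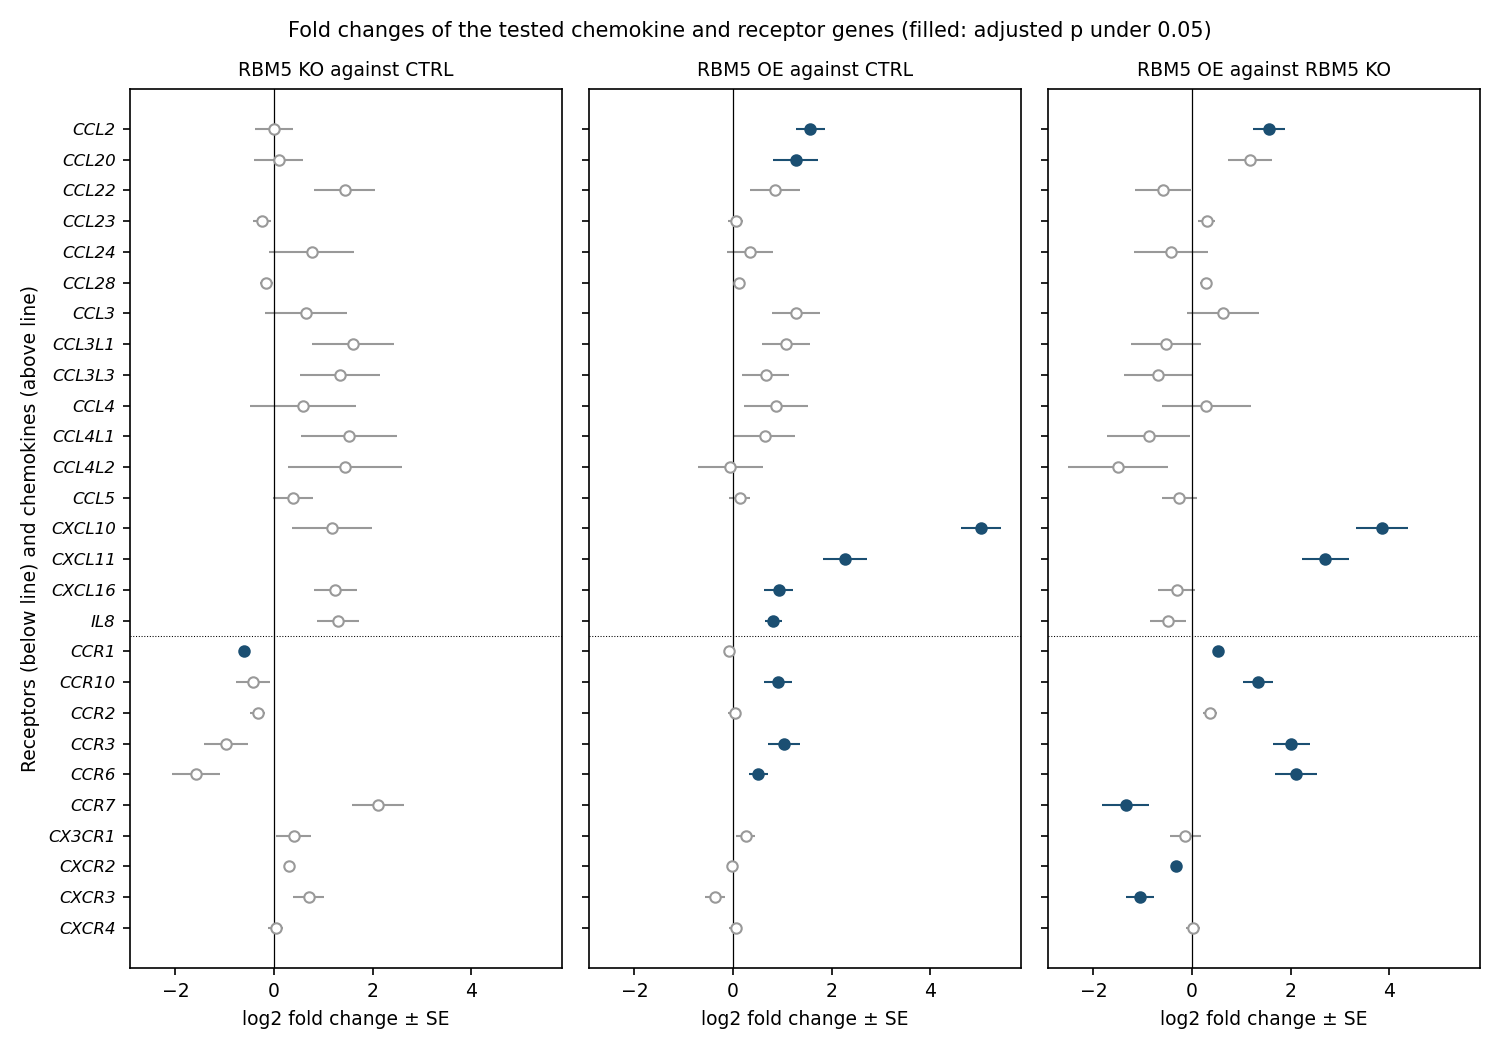
Log2 fold changes with their standard errors from edgeR for the members tested in RBM5 KO against CTRL, RBM5 OE against CTRL and RBM5 OE against RBM5 KO (CXCR5 not drawn), with filled points for an adjusted p under 0.05. CXCL10 is farthest to the right in both comparisons of RBM5 OE, at 5.02 and 3.85, and in RBM5 KO only CCR1 (-0.61) is filled.

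RBM5 KO was compared with CTRL to ask which genes change when RBM5 is disrupted. Of 26 members tested, 1 was lower in RBM5 KO, where 1.67% of the 14218 genes tested were lower. With edgeR, 0 were higher, where 0.837% of all genes were (2.51% in either direction), and at an unadjusted p under 0.05 there were 5 higher and 2 lower. DESeq2 called 1 higher and 2 lower. The groups did not overlap for 4 members, against 22.9% of all genes, with CCR7 and CXCR2 above CTRL (11.2% of all genes) and CCR1 and CCR6 below it (11.7%). The median log2 fold change was 0.49 over the members and 0.01 over all genes. It was 0.97 over the 16 chemokines tested and -0.15 over the 10 receptors.

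CCR1, a receptor of CCL3 and CCL5 on monocytes, fell in RBM5 KO. It had 33.4, 35.7 and 33.2 CPM in RBM5 KO, against 49.5, 51.7 and 55.0 CPM in CTRL. The libraries of each group lay close together and the groups were well apart, with a log2 fold change of -0.61 (SE 0.090, adjusted p = 0.0109). The adjusted p was 0.0708 without RBM5 KO replicate 3, 0.0635 without CTRL replicate 1 and 0.0636 without CTRL replicate 2, and with limma 0.0599 on log2(TPM + 1) and 0.0549 on log2(TPM + 0.1). CCR1 lies on chromosome 3 of GRCh37 from 46243202 to 46249804 on the minus strand, within the span of CCR3 on the plus strand.

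Other receptors had large fold changes that did not pass the adjusted test. CCR6 had 0.585, 2.25 and 3.68 CPM in RBM5 KO, against 8.52, 5.46 and 5.67 CPM in CTRL (log2 fold change -1.59, SE 0.49, adjusted p = 0.141). It was below CTRL in every RBM5 KO library, and it passed without RBM5 KO replicate 1 (-1.14, adjusted p = 0.0338) and with DESeq2 (adjusted p = 0.00973). CCR6 passed in 3 of 8 alternative settings with all libraries (adjusted p up to 0.215). It passed in 1 of the 6 edgeR fits that left out a single library (adjusted p up to 0.386). CCR7, the receptor that leads dendritic cells and T cells to lymph nodes, had 0.512, 1.33 and 1.55 CPM in RBM5 KO, against 0.157, 0.351 and 0.265 CPM in CTRL (log2 fold change 2.11, SE 0.53, adjusted p = 0.0782). Without RBM5 KO replicate 1 it passed (2.46, adjusted p = 0.0113), as it did with DESeq2 (adjusted p = 0.0291). CCR7 passed in 3 of 7 alternative settings (adjusted p up to 0.325) and in 1 of the 6 edgeR fits without a single library (up to 0.28). CXCR2 had 23.7, 24.3 and 23.3 CPM in RBM5 KO, against 17.4, 18.5 and 21.8 CPM in CTRL (log2 fold change 0.30, adjusted p = 0.22). CXCR3 had 11.0, 24.7 and 23.2 CPM in RBM5 KO, against 12.7, 15.8 and 7.94 CPM in CTRL (log2 fold change 0.70, adjusted p = 0.307), and passed without RBM5 KO replicate 1 (0.98, adjusted p = 0.0239). Without any other single library CXCR3 did not pass (adjusted p up to 0.657). CCR3 and CCR10 had log2 fold changes of -0.98 and -0.44, CCR2 of -0.34, CX3CR1 of 0.39 and CXCR4 of 0.03, all with overlapping groups.

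No chemokine gene was called in RBM5 KO, and for most of them RBM5 KO replicate 1 lay with or below CTRL. IL8 had 116.7, 406.9 and 415.1 CPM in RBM5 KO, against 148, 152.3 and 82.5 CPM in CTRL (log2 fold change 1.29, SE 0.42, adjusted p = 0.161). Replicates 2 and 3 of RBM5 KO were far above CTRL and replicate 1 was inside its range, and without that library the change was 1.69 (adjusted p = 0.00113). CCL3L1 had 16.3, 137.3 and 163.4 CPM in RBM5 KO, against 47.6, 51.4 and 5.90 CPM in CTRL (log2 fold change 1.60, SE 0.82, adjusted p = 0.371), or 2.10 (adjusted p = 0.0485) without RBM5 KO replicate 1. CCL5 had 91.4, 268.1 and 282.9 CPM in RBM5 KO, against 184.7, 213.8 and 93.2 CPM in CTRL (log2 fold change 0.39, SE 0.40, adjusted p = 0.684). CCL3 alone had a log2 fold change of 0.64 (SE 0.84, adjusted p = 0.745). The summed copies of CCL3 (28.8, 260.1 and 301.8 CPM in RBM5 KO) had a log2 fold change of 1.19 (adjusted p = 0.525), and those of CCL4 (2.16, 55.6 and 79.0 CPM in RBM5 KO) of 1.26 (adjusted p = 0.62). CXCL16 had 1.02, 2.80 and 3.31 CPM in RBM5 KO, against 1.33, 0.82 and 0.869 CPM in CTRL (log2 fold change 1.24, adjusted p = 0.197), and passed without RBM5 KO replicate 1 (1.60, adjusted p = 0.0131). Without any other single library, IL8, CCL3L1 and CXCL16 did not pass (adjusted p up to 0.415, 0.644 and 0.472). CXCL10 had 0.585, 2.36 and 2.32 CPM in RBM5 KO (log2 fold change 1.17, SE 0.81, adjusted p = 0.518) and CCL2 had 4.17, 6.45 and 6.92 CPM (log2 fold change -0.01, SE 0.39), both overlapping CTRL. CCL20, CCL23, CCL24 and CCL28 had log2 fold changes of 0.09, -0.25, 0.77 and -0.16, again with overlapping groups. CCL3L3, with 4.02, 38.8 and 40.8 CPM in RBM5 KO, had a log2 fold change of 1.34 (adjusted p = 0.449), and CCL4L1, with 1.17, 9.47 and 19.95 CPM, one of 1.51 (adjusted p = 0.475). CCL4L2, with 0.512, 36.6 and 45.6 CPM, had one of 1.43 (SE 1.16, adjusted p = 0.582), and CCL4 alone one of 0.58 (adjusted p = 0.836).

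Leaving out RBM5 KO replicate 1 and CTRL replicate 3 together changed this picture. With 2 libraries a group, 16 of 26 members were higher in RBM5 KO and 2 were lower, and over all 14381 genes tested 998 were higher and 961 lower. Both libraries were picked for standing apart in these data, so leaving them out lowers the spread that these p-values rest on. The same limit applies wherever either library is left out. The lower ones were CCR1 (-0.55, adjusted p = 0.000494) and CCR6 (-1.24, adjusted p = 0.000707). The higher ones included IL8 (1.45, adjusted p = 3.27e-12), CCL3L1 (1.60, adjusted p = 3.73e-12), CCL4L2 (1.43, adjusted p = 3.34e-09), CCL5 (0.47, adjusted p = 0.00104), CCL24 (0.84, adjusted p = 0.00547) and CXCR3 (0.75, adjusted p = 0.000264). CXCL10 (1.02, adjusted p = 0.0686) and CCL2 (-0.19, adjusted p = 0.519) remained without a call. Of the chemokine genes, IL8, CCL3L1 and CXCL16 also passed when RBM5 KO replicate 1 alone was left out, and IL8 passed with all libraries where no filter on low counts was applied (adjusted p = 0.018). The p-values of that setting need caution. For CCL3 in RBM5 OE against CTRL it gave an adjusted p of 8.86e-48, where edgeR with the filter gave 0.0571, both at a log2 fold change of 1.27.

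RBM5 OE was also set directly against RBM5 KO, with the 9 libraries in 1 fit. Of 28 members tested, 7 were higher in RBM5 OE, where 19.5% of the 14754 genes tested were higher, and 3 were lower, where 20.6% were (40.1% in either direction). The groups did not overlap for 12 members, against 52.6% of all genes, with 10 above (26.6% of all genes) and 2 below (26%). The same 3 chemokines with the largest changes against CTRL were higher, namely CXCL10 (log2 fold change 3.85, SE 0.52, adjusted p = 0.000166), CXCL11 (2.7, SE 0.48, adjusted p = 0.000995) and CCL2 (1.56, SE 0.33, adjusted p = 0.00276). In the single libraries CXCL10 had 28.5, 25.6 and 21.8 CPM in RBM5 OE, against 0.585, 2.36 and 2.32 CPM in RBM5 KO, and CXCL11 had 1.21, 1.38 and 0.834 CPM in RBM5 OE, against 0.146, 0.11 and 0.258 CPM in RBM5 KO. These 3 calls held without any single RBM5 OE or RBM5 KO library and without both libraries that stood apart. Single CTRL libraries were not left out of this fit.

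The 4 receptors that were higher in RBM5 OE than in RBM5 KO bind CC chemokines. CCR6 had 10.3, 10.0 and 7.66 CPM in RBM5 OE, against 0.585, 2.25 and 3.68 CPM in RBM5 KO (2.10, SE 0.42, adjusted p = 0.00222). CCR3 had 2.16, 2.47 and 2.54 CPM in RBM5 OE, against 0.402, 0.774 and 0.589 CPM in RBM5 KO (2.01, SE 0.37, adjusted p = 0.00117). For both genes the lowest RBM5 OE library was above the highest RBM5 KO library. CCR10 had 2.45, 2.26 and 3.22 CPM in RBM5 OE, against 0.768, 1.29 and 1.07 CPM in RBM5 KO (1.34, SE 0.30, adjusted p = 0.00421), and CCR1 had 47.4, 49.9 and 50.7 CPM in RBM5 OE, against 33.4, 35.7 and 33.2 CPM in RBM5 KO (0.53, SE 0.076, adjusted p = 0.000228). All 4 calls held without any single RBM5 OE or RBM5 KO library.

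CXCR3, CXCR2 and CCR7 were lower in RBM5 OE than in RBM5 KO. CXCR3 had 9.66, 9.0 and 9.52 CPM in RBM5 OE, against 11.0, 24.7 and 23.2 CPM in RBM5 KO, with no overlap (log2 fold change -1.07, SE 0.28, adjusted p = 0.011). It kept its call without any single RBM5 OE or RBM5 KO library. CXCR2 had 18.5, 18.9 and 19.4 CPM in RBM5 OE, against 23.7, 24.3 and 23.3 CPM in RBM5 KO (-0.33, SE 0.097, adjusted p = 0.0194). CCR7 had 0.293, 0.423 and 0.607 CPM in RBM5 OE, against 0.512, 1.33 and 1.55 CPM in RBM5 KO (-1.35, SE 0.48, adjusted p = 0.0419). The groups of CCR7 overlapped through RBM5 KO replicate 1. Of the RBM5 OE and RBM5 KO libraries left out singly, CCR7 kept its call only without that one (adjusted p up to 0.16). CCR7 was also not called by DESeq2, in the fit of the 6 RBM5 OE and RBM5 KO libraries alone or on either TPM scale (adjusted p 0.0502 to 0.178). CXCR2 lost its call without any RBM5 OE library or RBM5 KO replicate 2 (adjusted p 0.0512 to 0.0653), and on log2(TPM + 1) its change was -0.01 (adjusted p = 0.971). IL8 (-0.48, SE 0.37, adjusted p = 0.323), CCL5 (-0.26, SE 0.36, adjusted p = 0.598), CCL4L2 (-1.50, SE 1.02, adjusted p = 0.267) and the summed copies of CCL3 (-0.07, adjusted p = 0.951) and CCL4 (-0.88, adjusted p = 0.496) were not called with all libraries. Without both RBM5 KO replicate 1 and CTRL replicate 3, 10 of 29 members were higher and 11 lower, where 3432 of all 15019 genes were higher and 3498 lower, with IL8 (-0.87, adjusted p = 4.2e-08), CCL5 (-0.62, adjusted p = 2.62e-06) and CCL4L2 (-2.07, adjusted p = 1.77e-09) among the lower ones.

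Genes that act with chemokines were described from lists of known function. Of 25 genes of receptor signalling, all tested, 4 were higher and 4 lower in RBM5 OE than in CTRL, a share each way under those of all genes (19.8% and 20.2%), with GNG2, a G-protein gamma subunit, changing most (1.18, adjusted p = 1.08e-05), and CDC42, a GTPase of cell polarity, among the lower ones (-0.29, adjusted p = 0.00285). In RBM5 KO against CTRL, 1 of the 25 was higher, PAK1, a kinase downstream of CDC42 and RAC1 (0.50, adjusted p = 0.0464), and 1 was lower, GNG2 (-0.61, adjusted p = 0.0455), where 0.837% and 1.67% of all genes were. RBM5 OE against RBM5 KO gave 5 higher and 2 lower, where 19.5% and 20.6% of all genes were, with GNG2 at 1.79. Of 6 tested genes for proteases that trim chemokines, 0 were higher and 2 lower in RBM5 OE than in CTRL, where 20.2% of all genes were lower. They were CTSG (cathepsin G, -0.57, adjusted p = 4.63e-05) and ELANE (neutrophil elastase, -0.22, adjusted p = 0.0316). CTSG was also the 1 protease called in RBM5 KO (-0.89, adjusted p = 0.00968). Among atypical and chemokine-like receptors only CCRL2 and GPR35 were tested, and GPR35 was higher in RBM5 OE than in CTRL (0.49, adjusted p = 0.00715) and than in RBM5 KO (1.16, adjusted p = 0.000286).

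Of 20 transcription factors with known sites in chemokine promoters, all tested, 11 were higher in RBM5 OE than in CTRL and 2 were lower, where 19.8% and 20.2% of all genes were. Their median log2 fold change was 0.38. RELB, a subunit of NF-kappaB, had 73.4, 80.7 and 85.2 TPM in RBM5 OE, against 16.1, 17.4 and 7.15 TPM in CTRL (log2 fold change 2.52, adjusted p = 2.17e-05). NFKB2, whose product pairs with RELB, had 47.8, 61.0 and 51.6 TPM in RBM5 OE, against 13.7, 19.6 and 7.92 TPM in CTRL (2.03, adjusted p = 1.87e-05). For both genes every RBM5 OE library was above every CTRL library, and CTRL replicate 3 was the lowest library, as it was for CXCL10 and CCL2. Also higher were ATF3 (2.01), JUN (1.85), CEBPB (1.11), JUNB (0.72), NFKB1 (0.64), IRF1 (0.61), IRF7 (0.54), REL (0.51) and SPI1 (0.19). IRF8 (-0.94) and IRF3 (-0.26) were lower. In RBM5 KO against CTRL, 0 of the 20 were higher and 2 were lower, IRF1 (-0.79, adjusted p = 0.00707) and CEBPB (-1.01, adjusted p = 0.0135), where 0.837% of all genes were higher and 1.67% lower. RBM5 OE against RBM5 KO gave 8 higher and 2 lower, where 19.5% and 20.6% of all genes were, with CEBPB at 2.12 and IRF1 at 1.39. Whether these factors act on the chemokine genes was not tested.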

How the data were processed

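RNA from 3 biological replicates each of RBM5 KO, RBM5 OE and CTRL MOLM13 cells was extracted with TRIzol, depleted of ribosomal RNA and read in pairs on a NovaSeq. Per the submitters' processing notes the authors used Trim Galore for adapters, STAR 2.7.1a for the alignment to GRCh37.p13 and GATK 4.1.2.0 to mark duplicates. The expected count values were estimated per gene by RSEM without strand and deposited by the authors unscaled, and the TPM values deposited by the authors are RSEM's levels scaled by length and library. The paper's methods also name Salmon and DESeq2.

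Counts were rounded (92 spike-in entries with 0 counts left out), filtered with filterByExpr, scaled by TMM and tested in R 4.3.3 with edgeR 4.0.16 (quasi-likelihood test). Each group was fitted with CTRL in its 6 libraries, and RBM5 OE with RBM5 KO in the fit of 9. The SE is the absolute log2 fold change over the square root of F. A call needed a Benjamini-Hochberg adjusted p under 0.05, with all tested genes in the adjustment. Each library held 25522952 to 27871988 counts, and limits from counts cover counting error only. Nothing in the labels says that replicates were separate transductions, so p-values measure the spread between these cultures.

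The members and lists were chosen with earlier results of these data known. Of the 63 genes that match the naming rule, 1 is not reported here. Values were given for every member that was expressed, or called in any of the comparisons, other tested members by range, and some or all called genes of each other list. Alternatives were DESeq2 1.42.0, RLE scaling, other filters, limma 3.58.1 on log2(TPM + 1) and log2(TPM + 0.1), other libraries in the fit, the replicate number as a block, other thresholds of expression and leaving out libraries. Summing the near-identical copies of CCL3 and CCL4 was chosen after seeing the data. So were the 2 libraries left out together. Positions are those of GRCh37, where 53 of the 62 genes were matched by identifier to the annotation, and overlaps refer to that annotation, not to the one used for counting. Promoters come from RefSeq (GRCh38.p14), and the 2 builds were not mixed. Tested on simulated data, the fit of RBM5 KO with CTRL (14218 genes) recovered 82% of log2 changes of -1 and 88% of 1. That of RBM5 OE with CTRL (14370 genes) recovered 92% and 96%. Each share rests on 50 changed genes, and recovery for the members by themselves was not tested. In RBM5 KO against CTRL the SE of the members ran from 0.090 for CCR1 to 1.16 for CCL4L2. It was 0.42 for IL8 and 0.82 for CCL3L1. Replicates were checked for duplicates, and none had identical values. Figures were drawn with matplotlib 3.10.9.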

Additional observations from a re-analysis of the deposited data

How the results depend on the processing

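No direction of a called member reversed under any alternative run. In RBM5 KO against CTRL, 0 of 26 tested members were higher and 1 was lower. DESeq2 gave 1 higher and 2 lower of 26, and the fit of all 9 libraries 1 higher and 2 lower of 28. Without the filter on low counts, 2 were higher and 3 lower of 42. On log2(TPM + 1), on log2(TPM + 0.1) and with the replicate block, 0 were lower. The counts over all genes in these settings follow below. Leaving out 1 library gave 0 to 5 higher and 0 to 2 lower, of 26 or 27 tested. Leaving out both RBM5 KO replicate 1 and CTRL replicate 3 gave 16 higher and 2 lower of 26. In that fit 998 of 14381 genes were higher and 961 lower. In RBM5 OE against CTRL, 9 of 27 tested members were higher and 0 lower. Without the filter, 15 of 44 were higher and 2 lower, where 3070 of 23776 genes were higher and 3072 lower. Leaving out 1 library gave 5 to 9 higher and 0 to 2 lower, of 27 or 28 tested. Over all genes those fits gave 2048 to 3044 higher and 2136 to 3117 lower, of 14639 to 14708 tested. The fit without CTRL replicate 3 gave the 2 lower. In RBM5 OE against RBM5 KO, 3 of 28 tested members were lower. Both TPM settings gave 1 lower of 28, where 1951 and 1957 of 14754 genes were. Leaving out 1 RBM5 OE or RBM5 KO library gave 1 to 6 lower of 28 or 29 tested. Over all genes those fits gave 2330 to 3178 lower, of 15025 to 15065 tested. Leaving out both libraries gave 11 lower of 29, where 3498 of 15019 genes were. The cause of these differences was not tested. CXCL10 and CCL2 kept their calls in RBM5 OE under every alternative run, in both comparisons, and CXCL11 under every one in which it was tested.

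Over all genes, RBM5 KO against CTRL gave 119 higher and 238 lower, and DESeq2 gave 342 and 456, the fit of all 9 libraries 378 and 513, no filter 264 and 351, log2(TPM + 1) 27 and 82, log2(TPM + 0.1) 27 and 78, the replicate block 45 and 109, and leaving out 1 library 9 to 565 and 18 to 549. In RBM5 OE against CTRL, 2847 higher and 2909 lower, log2(TPM + 1) gave 2127 and 1771, and in RBM5 OE against RBM5 KO, 2878 and 3042, it gave 2577 and 1951. Samples with the same replicate number did not deviate together, with correlations from -0.24 to 0.10 in RBM5 KO and CTRL, so the block is given here only. With it, 11 of 27 members were higher in RBM5 OE against CTRL, where 2689 of 14370 genes were. In RBM5 OE against RBM5 KO, 7 of 28 were higher and 3 lower, where 2600 and 2703 of 14754 genes were. The largest correlation between libraries of RBM5 KO and CTRL, 0.36, was that of RBM5 KO replicate 1 with CTRL replicate 3. Expressed members numbered 25 at 0.5 TPM, 21 at 2 TPM and 25 where 2 of 3 libraries sufficed. Members under about 1 CPM, such as CXCL11, CCL20 and CCR7, rest on few reads.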
